A study of Mus musculus with 30 samples.

Results

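The 9 genes described here encode proteins that degrade, carry, bind or sort amyloid beta, and they were taken by name from the gene tables of the left ventricle. They are the proteases *Mme*, *Ide* and *Ece1*, the cell surface receptors *Lrp1*, *Prnp* and *Ager*, the sorting receptor *Sorl1*, and the carriers *Apoe* and *Clu*. Both tables list all 9, in the peptide study among 49671 genes and in the antibody study among 56386. In both, 8 of the 9 averaged 10 or more counts in a heart and were tested, and *Ager* did not.

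Amyloid beta is cut from its precursor and released into the extracellular fluid, where its level depends on removal as well as on production. Metalloproteases degrade the peptide, lipoprotein particles that carry apolipoprotein E or clusterin bind it, and LRP1 takes up both the free and the bound peptide, while RAGE, the product of *Ager*, and the prion protein bind it at the cell surface. SORL1 acts inside the cell and steers the precursor and the peptide between endosomes, the Golgi and lysosomes. These routes are best known from brain and brain vessels, and most of the genes are also used in the heart by fibroblasts, endothelium, macrophages or myocytes for other substrates.

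RNA was sequenced from the left ventricle of 30 wild-type male C57BL6J mice (C57BL6 in parts of the labels) in 2 studies that were run separately. In the peptide study, 7 mice were given recombinant human Aβ42 and 7 were given ScrAβ42, a peptide with the same residues in scrambled order, by daily intraperitoneal injection for 4 weeks from 12 weeks of age. In the antibody study, 8 mice were given 3D6, an antibody that neutralises Aβ42, and 8 were given a control antibody, weekly by intraperitoneal injection, in mice that were 12 weeks old at the start. The authors' results and methods describe the antibody mice as fed a high-fat diet and mention no peptide, and state that the sequenced hearts came from that study. The series description instead states that the antibody mice also received Aβ42. These 2 accounts differ on what both antibody groups shared. The labels and the methods also give different units for the daily peptide dose. Each heart is from a separately numbered mouse, and peptide hearts are named as labelled (Abeta42_3457 and ScrAbeta42_3448, for example).

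Peptide hearts held 4478991 to 6015767 counts, and antibody hearts held 6397192 to 8310478. The 8 cardiomyocyte markers passed the count filter in both studies, and their summed expression was at least 40984 CPM (counts scaled to the normalized library size) in every heart. A few hearts stood apart from the rest of their group. Abeta42_3457 and ScrAbeta42_3448 had the lowest shares of mitochondrial counts of their groups, 12.9% and 13.8%, against group medians of 18.6% and 17.9%. Markers of atrial tissue, which is not part of the left ventricle, summed to 8417 CPM in Abeta42_3457, 4707 in Abeta42_3455, 4357 in Abeta42_3458 and 3665 in ScrAbeta42_3448, and to at most 1158 CPM in the other 10 hearts of the peptide study. In the antibody study they summed to 2776 CPM in control mouse 15 and to at most 668 CPM in the other 15 hearts. Atrial sums also differed between the groups as a whole. Their median was 1158 CPM with Aβ42 and 10.5 CPM with ScrAβ42, and 98.5 CPM with 3D6 and 2.88 CPM with the control antibody. Control mouse 22 had the lowest mitochondrial share of the 16 antibody hearts (25.9%) and the highest sums of endothelial (989 CPM), Schwann cell (18.5 CPM), fibroblast (812 CPM, next to 806 CPM in control mouse 11) and blood markers (2692 CPM).

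Promoters are shown for 4 of the genes, chosen by how they varied across hearts. *Lrp1* and *Ece1* varied together in both studies, *Apoe* was among the most variable genes tested in both, and *Prnp* was the least variable of the 8 in the peptide study. RefSeq lists a promoter under the name of 8 of the 9 genes, and that of 5 starts where GENCODE places the gene's start. Each run is the 250 bases before that start on the gene's own strand, 5′ to 3′, in GRCm38.p6: *Ece1* chr4:137861987-137862236 (plus), *Lrp1* chr10:127621149-127621398 (minus), *Apoe* chr7:19699189-19699438 (minus) and *Prnp* chr2:131909678-131909927 (plus). Capitals mark matches to any of 4 short motifs on either strand, and a match on the other strand is printed as its reverse complement. The first is the GC box, searched as GGGCGG. The second is the CCAAT box, searched as these letters. The third is the TATA box, searched as TATAAA. The last is a nuclear receptor motif, searched as AGGTCA.
Ece1: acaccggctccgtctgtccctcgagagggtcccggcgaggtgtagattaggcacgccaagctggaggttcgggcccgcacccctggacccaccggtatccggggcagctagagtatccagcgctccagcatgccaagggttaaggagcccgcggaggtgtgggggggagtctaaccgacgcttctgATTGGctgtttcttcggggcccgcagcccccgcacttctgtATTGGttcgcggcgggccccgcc
Lrp1: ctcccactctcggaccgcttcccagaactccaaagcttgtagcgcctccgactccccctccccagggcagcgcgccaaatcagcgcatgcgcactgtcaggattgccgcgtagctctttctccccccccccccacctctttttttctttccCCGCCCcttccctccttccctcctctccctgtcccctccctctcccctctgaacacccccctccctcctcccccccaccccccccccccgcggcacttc
Apoe: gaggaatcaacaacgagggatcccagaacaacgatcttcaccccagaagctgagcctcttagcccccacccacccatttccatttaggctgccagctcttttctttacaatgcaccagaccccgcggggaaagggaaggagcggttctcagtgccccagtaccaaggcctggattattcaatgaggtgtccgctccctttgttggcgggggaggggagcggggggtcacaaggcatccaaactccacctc
Prnp: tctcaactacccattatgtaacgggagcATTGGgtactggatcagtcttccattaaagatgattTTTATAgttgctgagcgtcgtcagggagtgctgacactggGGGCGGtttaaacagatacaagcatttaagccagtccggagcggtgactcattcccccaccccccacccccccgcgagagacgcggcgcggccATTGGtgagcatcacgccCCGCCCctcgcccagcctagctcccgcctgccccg
The *Ece1* window holds 2 CCAAT boxes, the *Lrp1* window holds 1 GC box, and the *Prnp* window holds 2 GC boxes, 2 CCAAT boxes and 1 TATA box, with no overlap between matches. None of the 4 motifs is in the *Apoe* window, which lies before the start of the longer transcript *Apoe-206* rather than of the leading *Apoe-209*. Among 32536 RefSeq promoter windows of this length, 33% hold the GC box, 33.8% the CCAAT box, 12.3% the TATA box and 14.0% the nuclear receptor motif. The windows of *Lrp1* and *Ece1* are rich in G and C (67.2% and 66.8%) and hold 13 and 22 CpG, against medians of 52.4% and 6 over all windows. The windows of *Prnp* and *Apoe* have 58.8% and 57.2% G and C with 17 and 8 CpG.

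Per transcript length, the carriers were the most abundant of the 9 and the receptor *Ager* was barely detected. The level per length is given as TPM, counts per base of transcript scaled to the same total in every heart. *Clu* had a median level of 605 in the 14 peptide hearts and 376 in the 16 antibody hearts, and *Apoe* of 468 and 287. The order of this pair was not the same in every heart, with *Clu* above *Apoe* in 12 of 14 and 11 of 16 hearts. *Prnp* came next with medians of 133 and 61.6, below *Apoe* in all 30 hearts. *Ide*, *Ece1* and *Lrp1* followed with medians from 33.1 to 78.7 in peptide hearts and from 27.9 to 37.8 in antibody hearts. Their order was *Ide*, *Ece1*, *Lrp1* in the peptide study and *Lrp1*, *Ide*, *Ece1* in the antibody study, where neighbours kept this order in only 10 of 16 hearts each. *Sorl1* and *Mme* were far lower, at 3.44 and 3.42 in the peptide study, with *Sorl1* above *Mme* in 9 of 14 hearts. Among the antibody hearts *Mme* was at 1.91 and *Sorl1* at 0.865, with *Mme* the higher in 14 of 16 hearts. *Ager* was last in both studies, at 0.785 and 0.154.

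**Figure D1:**
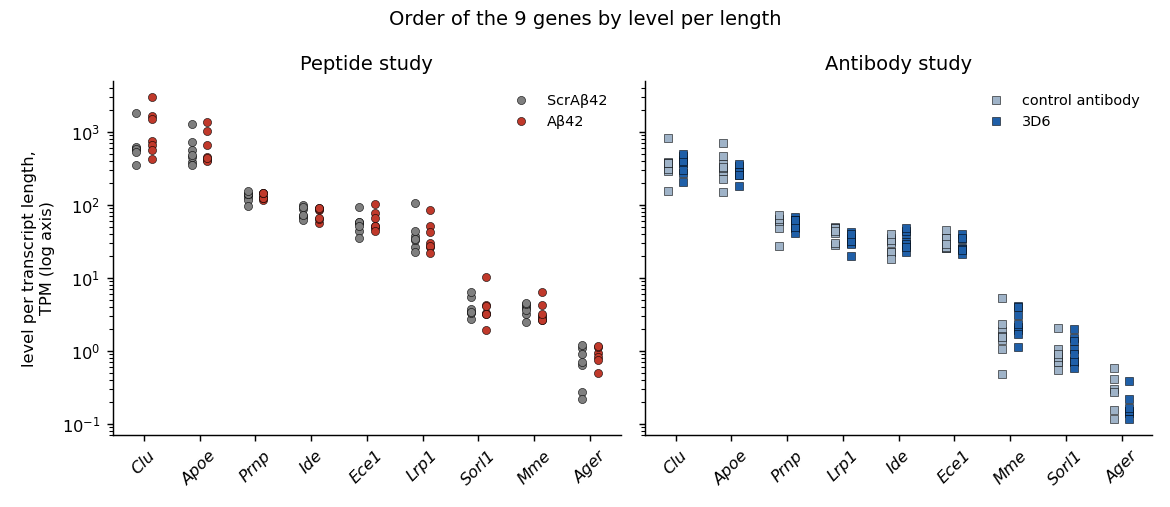
Level per transcript length (TPM, log axis) of the 9 genes in each heart, with genes ordered by their median in each study; each point is a heart, and the 4 hearts with 0 *Ager* counts are not drawn. *Clu* and *Apoe* lead in both studies, the medians of *Sorl1* and *Mme* (0.865 to 3.44) lie far below that of *Lrp1* (33.1 and 37.8), and *Ager* is last.

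The first comparison asks whether raised Aβ42 changes the expression of the genes that clear and bind it, and the second asks whether neutralising the peptide does. No member passed an adjusted p of 0.05 in either comparison. With edgeR's quasi-likelihood test this threshold was passed by 0 of 11985 genes (0.0%) for Aβ42 against ScrAβ42, where 780 genes had an unadjusted p under 0.05, DESeq2 called 12 genes and limma-voom called 0. For 3D6 against the control antibody edgeR called 0 of 12274 genes (0.0%), with 447 genes at an unadjusted p under 0.05, and DESeq2 and limma-voom called 0. An unadjusted p under 0.05 was reached by 0 of the 8 tested members in both comparisons, against 6.51% and 3.64% of all genes. The groups overlapped for all 8 members in both comparisons. Groups that do not overlap were found for 0.0918% and 0.0% of all genes tested. With Aβ42, 4 members were higher and 4 lower, with a median log2 fold change of 0.00, while 50.5% of all genes were higher with a median of 0.002. With 3D6, 3 members were higher and 5 lower, with a median of -0.04, while 47.4% of all genes were higher with a median of -0.01. The largest difference was that of *Clu* with Aβ42, 0.67, which lies above the 95th percentile of all genes (0.42), and those of *Mme* (0.32) and *Apoe* (-0.33) with 3D6 lie outside the 5th to 95th percentiles of -0.31 to 0.24. These are bulk measurements, in which fewer cells of a type and less RNA per cell cannot be told apart.

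**Figure D2:**
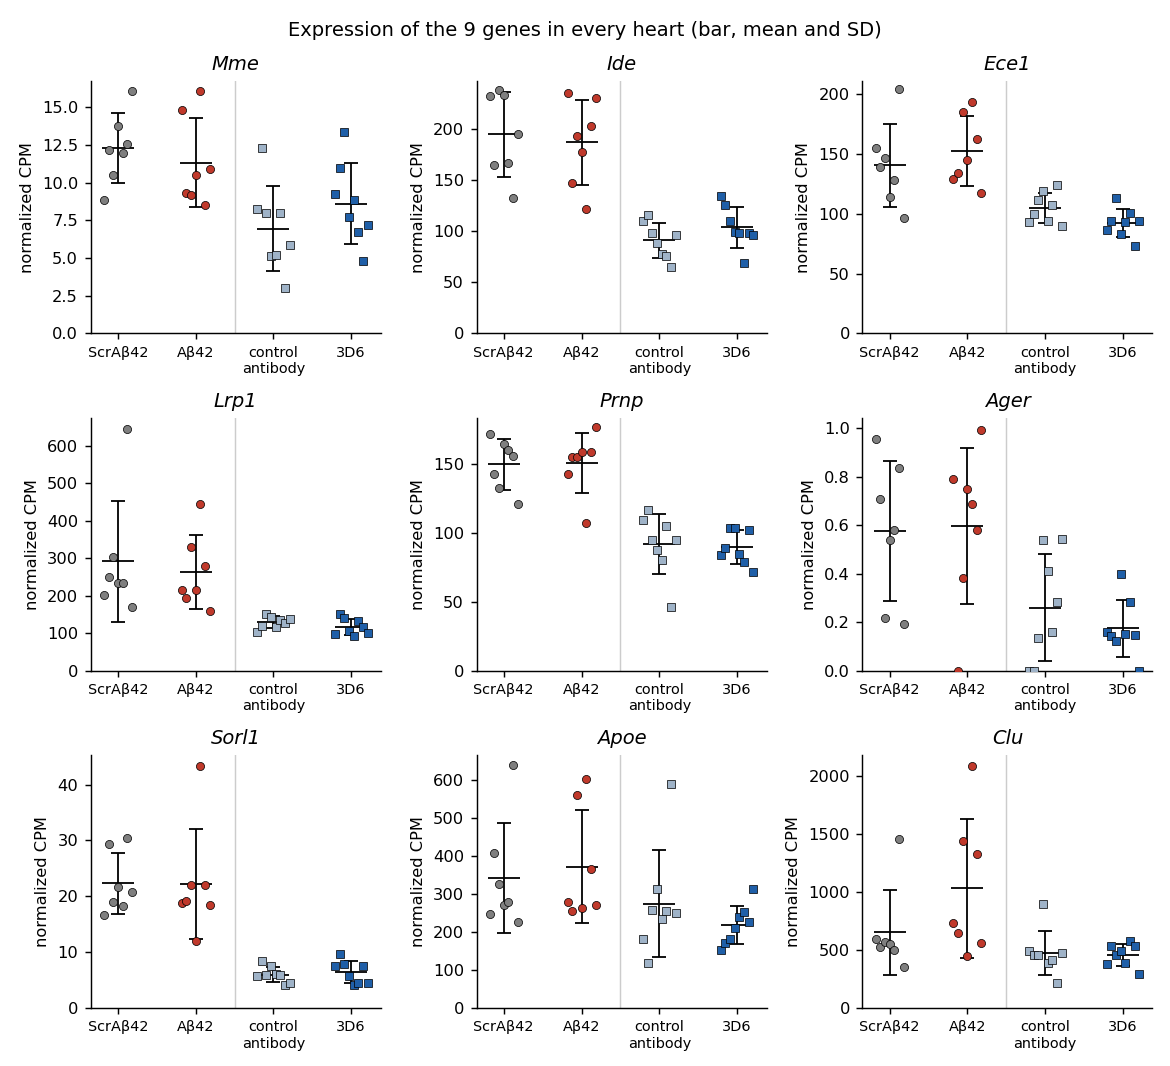
Normalized CPM of the 9 genes in each of the 30 hearts; points are hearts, the wide bar is the group mean and the whiskers are 1 SD. The groups of each comparison overlap for all 9 genes, and single hearts stand out in *Clu*, *Lrp1*, *Apoe* and *Sorl1*.

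**Figure D3:**
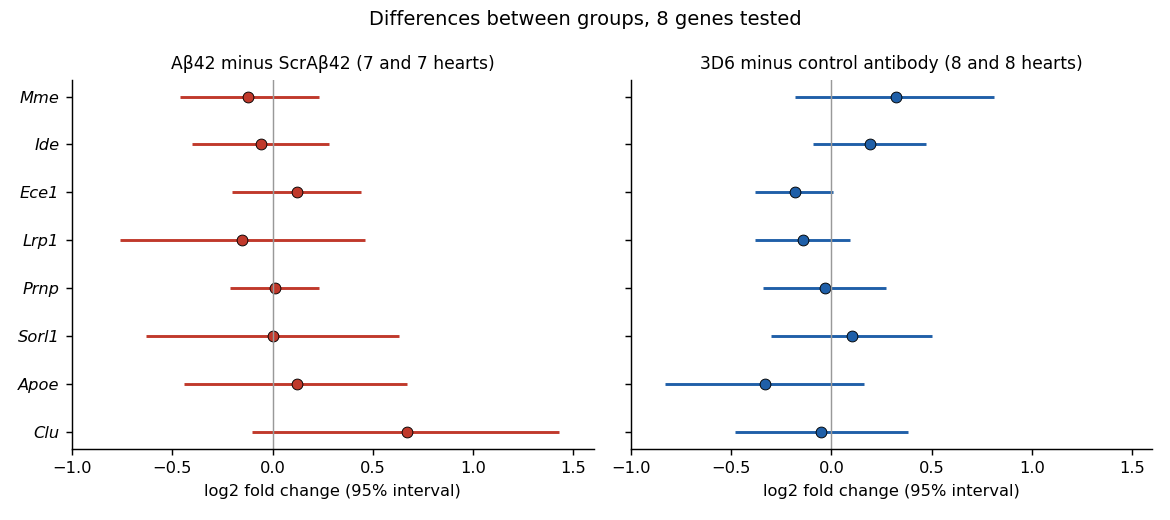
Log2 fold change with its 95% interval for the 8 genes tested, Aβ42 minus ScrAβ42 on the left and 3D6 minus control antibody on the right. Every interval includes 0, and the widest is that of *Clu* with Aβ42, from -0.10 to 1.43.

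None of the 3 proteases passed the test in either comparison, and their groups overlapped. *Mme* encodes neprilysin, a membrane-bound endopeptidase that also degrades natriuretic peptides, and lies on the plus strand at chr3:63241537-63386030. It was expressed at a low level, 8.5 to 16.1 CPM (median 10.5) with Aβ42 and 8.84 to 16.1 CPM (median 12.2) with ScrAβ42. The ranges were nearly the same, and 2 of 7 Aβ42 hearts exceeded the ScrAβ42 median. The log2 fold change was -0.12 (SE 0.16, adjusted p = 0.941, edgeR). In the antibody hearts *Mme* was 4.79 to 13.4 CPM (median 8.29) with 3D6 and 2.99 to 12.3 CPM (median 6.91) with the control antibody. The lowest value was in control mouse 22, and 6 of 8 3D6 hearts exceeded the control median. Its log2 fold change was 0.32 (SE 0.24, 95% interval -0.18 to 0.81, adjusted p = 0.946, edgeR). With the mitochondrial share as a covariate it was 0.10.

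*Ide* encodes insulin-degrading enzyme, a cytosolic and secreted metalloprotease that cleaves insulin and amyloid beta, on the minus strand at chr19:37268743-37337852. With Aβ42 it was 122 to 235 CPM (median 193) and with ScrAβ42 132 to 238 CPM (median 195). The lowest hearts of the 2 groups were Abeta42_3457 and ScrAbeta42_3448, the hearts with the fewest mitochondrial counts, and the groups covered the same range. The fitted log2 fold change was -0.06 (SE 0.16, 95% interval -0.40 to 0.28, adjusted p = 0.963, edgeR), and 0.06 with the atrial score as a covariate. With 3D6 *Ide* was 68.6 to 134 CPM (median 98.9) against 65.4 to 116 CPM (median 92.4) with the control antibody. Of the 3D6 hearts, 7 of 8 exceeded the control median and 2 exceeded every control heart. This gave a log2 fold change of 0.19 (SE 0.13, 95% interval -0.09 to 0.47, adjusted p = 0.946, edgeR), and 0.04 with the mitochondrial share as a covariate.

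*Ece1* encodes endothelin-converting enzyme 1, which activates endothelin and degrades amyloid beta in endosomes, on the plus strand at chr4:137862237-137965229. It was 117 to 193 CPM (median 145) with Aβ42 and 96.1 to 204 CPM (median 139) with ScrAβ42. Both maxima were in the same pair of hearts, and 4 of 7 Aβ42 hearts exceeded the ScrAβ42 median. The difference was 0.12 on the log2 scale (SE 0.15, adjusted p = 0.932, edgeR). It was -0.09 with the atrial score as a covariate, 0.04 without ScrAbeta42_3449 and 0.23 without ScrAbeta42_3448. In the antibody study *Ece1* had a narrow range, 73.0 to 113 CPM (median 93.2) with 3D6 and 89.4 to 124 CPM (median 103) with the control antibody. Only 1 of 8 3D6 hearts exceeded the control median, and 3 lay below every control heart. The log2 fold change was -0.18 (SE 0.09, 95% interval -0.38 to 0.01, adjusted p = 0.946, edgeR), with the smallest unadjusted p of the 16 member tests. It was negative under each of the 25 alternative settings, from -0.23 to -0.14, and no setting brought the adjusted p under 0.699. Endothelial cells express *Ece1*, and their markers summed to 620 to 760.2 CPM (median 674) with 3D6 and 640.4 to 989 CPM (median 743) with the control antibody, with all 6 markers tested. Their part in the *Ece1* difference was not tested.

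*Lrp1* encodes a large endocytic receptor for apolipoprotein E particles, protease complexes and amyloid beta, on the minus strand at chr10:127538161-127621148. Its values with Aβ42 were 159 to 445 CPM (median 216) and with ScrAβ42 169 to 646 CPM (median 234). The highest hearts were Abeta42_3457 and ScrAbeta42_3448, and the next highest of their groups were at 329.6 and 304 CPM. Its log2 fold change was -0.15 (SE 0.29, 95% interval -0.76 to 0.46, adjusted p = 0.951, edgeR), and its sign rested on ScrAbeta42_3448. The value was 0.18 without ScrAbeta42_3448, -0.33 without Abeta42_3457 and 0.0015 without both. In the antibody study, where no heart stood apart for this gene, *Lrp1* was 92.9 to 151 CPM (median 111) with 3D6 and 104 to 151 CPM (median 131) with the control antibody. The groups shared their highest value, and 3 of 8 3D6 hearts lay below every control heart. The fitted log2 fold change was -0.14 (SE 0.11, 95% interval -0.38 to 0.09, adjusted p = 0.946, edgeR).

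*Prnp* encodes the prion protein, a GPI-anchored surface protein that binds amyloid beta oligomers, on the plus strand at chr2:131909928-131938429. It was 107 to 177 CPM (median 155) with Aβ42 and 121 to 172 CPM (median 156) with ScrAβ42. The lowest value was in Abeta42_3457, and the other 13 hearts lay between 121 and 177 CPM. This gave a log2 fold change of 0.01 (SE 0.10, adjusted p = 0.995, edgeR), and its 95% interval, -0.21 to 0.23, was the narrowest of the members in this comparison. With 3D6 *Prnp* was 71.5 to 104 CPM (median 87.1) and with the control antibody 46.2 to 117 CPM (median 95.1). The value of 46.2 CPM in control mouse 22 was far below the next lowest control heart at 80.6 CPM. The difference was -0.03 on the log2 scale (SE 0.14, adjusted p = 0.978, edgeR), and -0.13 without that heart.

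*Ager* encodes RAGE, a receptor of the immunoglobulin family that binds amyloid beta, HMGB1 and S100 proteins and is most abundant in lung epithelium, on the plus strand at chr17:34597862-34600936. It had 0 to 5 counts in each of the 30 hearts. The 7 Aβ42 hearts held 23 counts in all, a rate of 0.613 CPM (exact Poisson 95% interval 0.389 to 0.920), and the 7 ScrAβ42 hearts held 21, a rate of 0.573 CPM (0.355 to 0.876). The 8 3D6 hearts held 10 counts (0.173 CPM, 0.0830 to 0.318) and the 8 control hearts held 15 (0.272 CPM, 0.152 to 0.448). These intervals cover counting error only, they overlap within each study, and a difference was not detectable at this depth. The floor of 3 counts, which corresponds to 0.361 to 0.670 CPM depending on the heart, was not exceeded in 21 of 30 hearts. Of the 7 lung epithelium markers, only *Hopx*, which the heart also expresses, passed the filter. *Sftpc* and *Sftpa1* were at 0 in all hearts, *Sftpb*, *Rtkn2* and *Aqp5* reached at most 0.799 CPM, and *Scgb1a1* had a median of 0 and reached 5.81 CPM in a peptide heart and 5.66 CPM in an antibody heart.

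*Sorl1* encodes a VPS10 domain sorting receptor that returns the amyloid precursor from endosomes to the Golgi and directs amyloid beta to lysosomes, on the minus strand at chr9:41964720-42124297. It was 12.0 to 43.3 CPM (median 19.2) with Aβ42 and 16.7 to 30.5 CPM (median 20.7) with ScrAβ42. The highest hearts were again Abeta42_3457 and ScrAbeta42_3448, the latter close to ScrAbeta42_3442 at 29.4 CPM, and the means were almost identical, 22.2 ± 9.86 and 22.3 ± 5.45 CPM (SD, n = 7 each). The log2 fold change was -1.9e-05 (SE 0.30, 95% interval -0.63 to 0.63, adjusted p = 1.00, edgeR), so the data bound it only to within 0.63 in either direction. It was -0.42 with the atrial score as a covariate. Among the antibody hearts *Sorl1* was 4.05 to 9.61 CPM (median 6.62) with 3D6 and 4.13 to 8.33 CPM (median 5.86) with the control antibody. Each antibody heart held 27 to 68 counts of it, and the groups overlapped over most of their range. Its log2 fold change was 0.10 (SE 0.19, adjusted p = 0.948, edgeR).

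*Apoe* encodes apolipoprotein E, made mainly by liver and by macrophages and glia, on the minus strand at chr7:19696109-19699188. With Aβ42 it was 255 to 602 CPM (median 279) and with ScrAβ42 225 to 638 CPM (median 279). The medians were equal, and Abeta42_3457, Abeta42_3455 and ScrAbeta42_3448 exceeded the other hearts, which reached at most 408 CPM. The fitted log2 fold change was 0.12 (SE 0.26, 95% interval -0.44 to 0.67, adjusted p = 0.959, edgeR), and it was -0.04 without Abeta42_3457 and 0.34 without ScrAbeta42_3448. With 3D6 *Apoe* was 152 to 312 CPM (median 218), and with the control antibody it was 118 to 589.7 CPM (median 251). Control mouse 22 held the highest value, and the next highest control heart was at 313 CPM. Only 1 of 8 3D6 hearts exceeded the control median. This gave a log2 fold change of -0.33 (SE 0.24, 95% interval -0.83 to 0.16, adjusted p = 0.946, edgeR). It was -0.07 without control mouse 22, and 0.06 with the mitochondrial share as a covariate. The 8 macrophage markers, of which 7 were tested, summed to 72.8 to 119 CPM with 3D6 and 84.1 to 141 CPM with the control antibody, with 141 CPM in control mice 22 and 23 alike. The part of macrophage content in the *Apoe* difference was not tested.

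*Clu* encodes clusterin, a secreted chaperone also called apolipoprotein J, on the plus strand at chr14:65968483-65981547, and showed the largest difference of the 8 genes tested. It was 445 to 2082 CPM (median 731) with Aβ42 and 353 to 1455 CPM (median 549) with ScrAβ42. Of the Aβ42 hearts, 6 of 7 exceeded the ScrAβ42 median and only Abeta42_3457 exceeded every ScrAβ42 heart. The group means were 1029.8 ± 600.4 and 649 ± 364 CPM (SD, n = 7 each). The difference was 0.67 on the log2 scale (SE 0.36, 95% interval -0.10 to 1.43, adjusted p = 0.783, edgeR), a fold of 1.59 with an interval from 0.93 to 2.70. It was 0.40 without Abeta42_3457 and 1.00 without ScrAbeta42_3448. The 4 peptide hearts with the most *Clu* were Abeta42_3457 (2082 CPM), ScrAbeta42_3448 (1455), Abeta42_3455 (1434) and Abeta42_3458 (1321). These were also the 4 hearts with the highest sums of atrial markers, and in the other 10 hearts *Clu* was 353 to 731 CPM. When the atrial score was added to the model, the value for *Clu* was -0.10. In the antibody hearts *Clu* was 294 to 576 CPM (median 475) with 3D6 and 215 to 895 CPM (median 453) with the control antibody. The value of 895 CPM was in control mouse 15, the heart with the highest atrial sum, and the value of 215 CPM was in control mouse 22. The log2 fold change was -0.05 (SE 0.20, 95% interval -0.48 to 0.38, adjusted p = 0.976, edgeR), and it was 0.16 without control mouse 15.

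**Figure D4:**
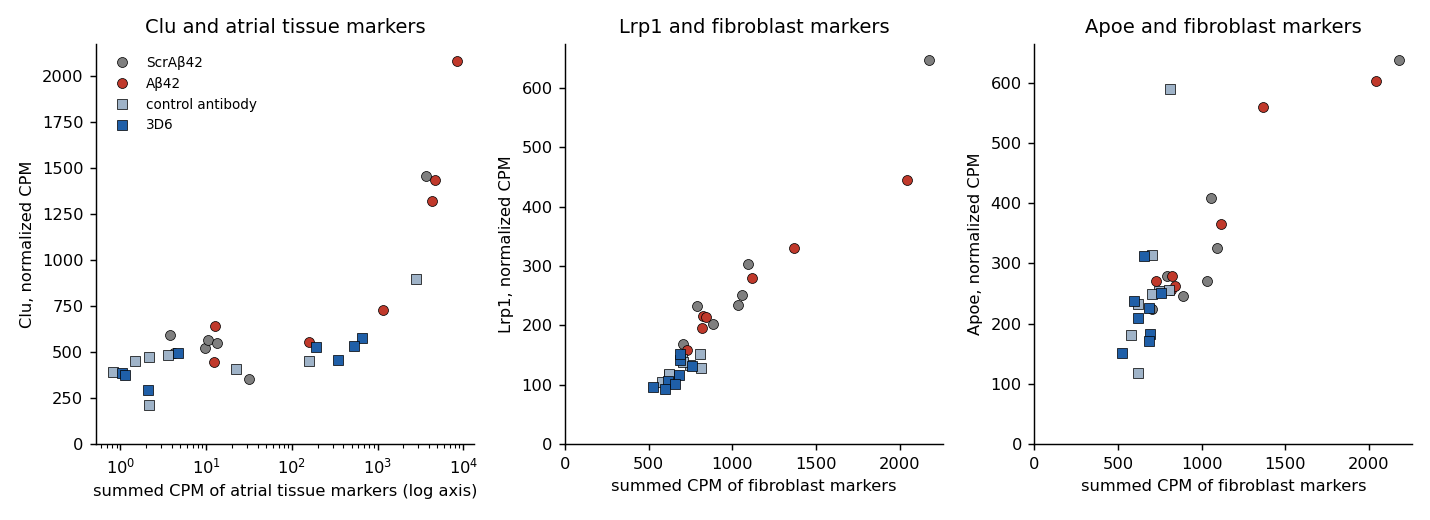
*Clu* against the summed CPM of 5 atrial markers (log axis), and *Lrp1* and *Apoe* against the summed CPM of 6 fibroblast markers, each point a heart of 1 of the 4 groups. The 5 hearts with the highest *Clu* are the 5 with the highest atrial sums, and *Apoe* in control mouse 22 (589.7 CPM) lies far above hearts with a like fibroblast sum.

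Some hearts were at an end of their group for most of the tested members. Abeta42_3457 was the highest or the lowest heart of its group for 8 of the 8 tested members, ScrAbeta42_3448 for 6, control mouse 22 for 7 and control mouse 8 for 5. ScrAbeta42_3449, which had the lowest *Lrp1*, *Apoe*, *Clu*, *Ece1* and *Prnp* of its group and the highest *Mme*, was so for 6. Abeta42_3455, Abeta42_3458 and control mouse 15, which had high atrial sums, were so for 0, 1 and 1. The fibroblast markers, all 6 of which were tested, summed to 726 to 2042 CPM (median 842) with Aβ42 and 705 to 2178 CPM (median 1031) with ScrAβ42. Their highest sums were in Abeta42_3457 and ScrAbeta42_3448, where *Lrp1* was also highest, and the lowest sums of the 2 groups, 726 and 705 CPM, were in Abeta42_3460 and ScrAbeta42_3449, where *Lrp1* was lowest. Abeta42_3457 also had the highest smooth muscle and pericyte sum of the 14 peptide hearts (2351 CPM) and the lowest cardiomyocyte sum (40984 CPM). With the atrial score in the model the Aβ42 values of *Lrp1*, *Sorl1*, *Apoe* and *Mme* were -0.60, -0.42, -0.39 and -0.22, with adjusted p-values of 0.524 to 0.848 (edgeR). Macrophage markers, of which 7 of 8 were tested, summed to 177 to 291 CPM (median 194) with Aβ42, highest in Abeta42_3455, and to 162 to 395 CPM (median 195) with ScrAβ42, highest in ScrAbeta42_3448. The 5 blood markers summed to 556 to 5073 CPM (median 1519) with Aβ42 and to 802 to 15945 CPM (median 3317) with ScrAβ42, highest in Abeta42_3456 and ScrAbeta42_3448. *Apoe* was high in Abeta42_3455 and ScrAbeta42_3448, and in Abeta42_3456 it was 263 CPM. It was highest of the Aβ42 group in Abeta42_3457 (602 CPM), where the macrophage sum was below that of Abeta42_3455. It was lowest of the ScrAβ42 group in ScrAbeta42_3449 (225 CPM), where the blood markers summed to 10048 CPM. The adipocyte markers (3 of 5 tested) summed to 279.8 CPM in Abeta42_3457, 51.4 in ScrAbeta42_3448 and 39.6 in ScrAbeta42_3442. These hearts had the most *Sorl1*, but Abeta42_3451, with an adipocyte sum of 88.1 CPM, had 18.8 CPM of it. Sums of the 5 mesothelium markers were highest in Abeta42_3457, Abeta42_3458 and Abeta42_3455, the Aβ42 hearts with the most *Clu*. ScrAbeta42_3448 was at 54.8 CPM, below ScrAbeta42_3445 at 76.4 CPM. The part of fibroblast, smooth muscle, macrophage, blood, adipocyte and mesothelium content in these differences was not tested.

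Members differed in how much they varied between hearts of 1 group. In the peptide study the within-group SD of log2 CPM was 0.73 for *Clu*, 0.57 for *Lrp1*, 0.52 for *Apoe* and 0.45 for *Sorl1*, which are percentiles 95.6, 92.0, 90.3 and 86.0 of all genes tested. That of *Prnp* was 0.21, percentile 40.7. In the antibody study *Apoe* (0.52) and *Mme* (0.52) were at percentiles 90.7 and 90.3, while *Lrp1* (0.23) and *Ece1* (0.18) were at percentiles 31.1 and 16.1.

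The relations between members across hearts, taken after removing group means, also differed between the studies. They are given as Spearman's rho over 14 peptide hearts and 16 antibody hearts, and as descriptions only. Depth and tissue composition differed between the hearts of each study, and their part in the rho values was not tested. *Lrp1* and *Apoe* had a rho of 0.94 in peptide hearts and 0.08 in antibody hearts, and *Clu* and *Apoe* had 0.84 and -0.11. *Ece1* with *Lrp1* (0.77 and 0.54) and *Clu* with *Lrp1* (0.83 and 0.50) were positive in both. *Apoe* with *Ide* was negative in both, at -0.31 and -0.75.

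Among 11361 genes tested in both studies, the genes most like each member were ranked by the lower of their 2 rho values. For *Lrp1* they were *Sfrp1*, *Col1a2*, *Ssc5d*, *Podn* and *Ccdc80*, with rho of at least 0.85 in both studies, and *Col1a2* is 1 of the 6 fibroblast markers. For *Ece1* they were *Unc13b*, *Plagl1*, *Ptgs1*, *Ahsg* and *Plvap*, the last an endothelial gene, with rho of at least 0.85. For *Apoe* they were *Eef1a1*, *Dpt*, *Fxyd5*, *Gas6* and *Selenom*, with rho of at least 0.87. For *Clu* they were *Dpysl3*, *Pi16*, *Map1b*, *Flrt2* and *Ace*, with rho of at least 0.79. *Ide* was most like *Zxdc*, *Zbtb18*, *Canx*, *Msi2* and *Caprin1* (at least 0.77), and *Mme* most like *Cdc27*, *Itfg1*, *Nf1*, *Rc3h2* and *Lrrc58* (at least 0.73). *Sorl1* was most like *Tmed8*, *Slc38a1*, *Zdhhc21*, *Epha4* and *Copb1* (at least 0.73), and *Prnp* most like *Ipo5*, *Srrm4*, *Mtor*, *St3gal6* and *Myo5b* (at least 0.72).

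The antibody study was counted per transcript, which showed which form of each gene the ventricle used. A single protein-coding transcript held most of the estimated counts of *Prnp* (*Prnp-201*, 100%), *Ece1* (ENSMUST00000102518, 99.0%), *Sorl1* (ENSMUST00000060989, 97.9%) and *Clu* (*Clu-201*, 94.1%). Of the rest of *Clu*, *Clu-209* held 3.46% and the retained-intron transcript *Clu-208* 1.81%. *Ide-201* held 88.6% of *Ide*, with 11.1% on the processed transcript *Ide-205*. ENSMUST00000049149, of 89 exons, held 87.6% of *Lrp1*, and the retained-intron transcript ENSMUST00000135188, of 3 exons near the end of the gene, held 11.4%. *Mme-205*, whose 8039 bases make it the longest of the *Mme* forms, held 60.1% and *Mme-201* held 30.2%, with 0 counts of *Mme-201* in 4 of 16 hearts. None of the 13 annotated *Ager* transcripts reached the filter.

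*Apoe* was the exception, with 4 transcripts at over 15% each. *Apoe-209* held 46.0%, *Apoe-201* 19.3%, *Apoe-206* 17.7% and the processed transcript *Apoe-202* 15.6%. The share of *Apoe-209* ran from 0% in control mouse 8, where 429 estimated counts were placed on *Apoe-201*, to 63.3% in control mouse 22. *Apoe-201* and *Apoe-209* start 44 bases apart and end at the same base. Added together, they held 58.8 to 66.4% (median 64.7%) with 3D6 and 53.0 to 72.4% (median 63.8%) with the control antibody, a far narrower range than either had alone. In control mouse 22, 375 of its *Apoe* CPM were on *Apoe-209* and 116 on *Apoe-206*, each the highest of the 16 hearts, while *Apoe-202* at 37.7 CPM was not.

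**Figure D5:**
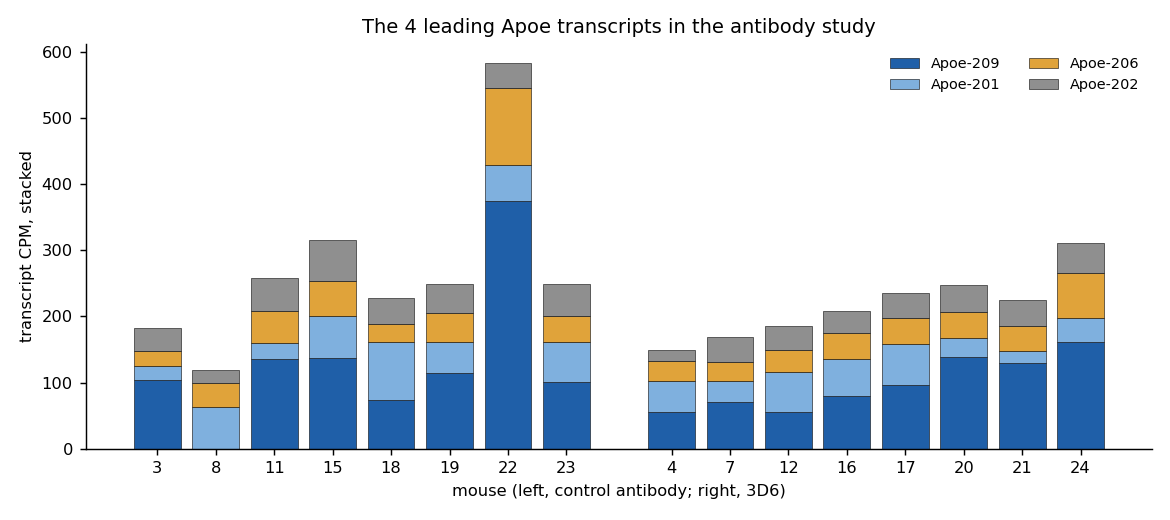
CPM of the 4 leading *Apoe* transcripts in each heart of the antibody study, stacked, with the mouse number below each bar. The total is highest in control mouse 22, where *Apoe-209* reaches 375 CPM, and *Apoe-209* is listed at 0 in control mouse 8.

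Of 17 member transcripts tested between 3D6 and the control antibody, 0 passed an adjusted p of 0.05, as did 0 of 20857 transcripts in all (0.0%, edgeR), while 500 of all transcripts (2.40%) had an unadjusted p under 0.05 and limma-voom called 0. The smallest p of the members was that of ENSMUST00000102518, with a log2 fold change of -0.19 (SE 0.09, adjusted p = 1.00, edgeR). *Apoe-209* (-0.40, SE 0.65), *Apoe-201* (-0.31, SE 0.29), *Apoe-206* (-0.28, SE 0.29) and *Apoe-202* (-0.23, SE 0.20) had negative log2 fold changes smaller than 2 standard errors. The retained-intron transcript *Apoe-211*, at 0.751% of *Apoe*, had a positive one (0.36, SE 0.57), as did *Clu-209* (0.22, SE 0.66) and *Clu-208* (0.14, SE 0.60).

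Beyond the members, 10 lists with 124 genes of the same routes were examined. In the peptide study 96 were tested, of which 52 were higher and 44 lower with Aβ42, 0 passed an adjusted p of 0.05, and 9 (9.38%) had an unadjusted p under 0.05, against 6.51% of all genes. These 9 include *Alb*, which passed the count filter only through the ScrAβ42 hearts, so its place in this share was decided by the difference itself. Among the antibody hearts 93 were tested, of which 43 were higher and 50 lower with 3D6, 0 passed, and 4 (4.30%) had an unadjusted p under 0.05, against 3.64% of all genes. By list, the median log2 fold change lay between -0.05 and 0.10 with Aβ42 and between -0.17 and 0.07 with 3D6. By direction, 2 of the 96 tested had an unadjusted p under 0.05 and were higher with Aβ42, and 7 were lower, *Alb* among them. Over all 11985 genes these were 430 (3.59%) and 350 (2.92%). With 3D6, 1 of the 93 was higher and 3 were lower, against 162 (1.32%) and 285 (2.32%) of all 12274 genes. The genes named next with an adjusted p are those with an unadjusted p under 0.05, and none passed the adjusted threshold.

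Among the other proteases that cut amyloid beta, 7 of 14 tested were higher with Aβ42 and 6 of 13 with 3D6. The lysosomal cathepsins *Ctsb* and *Ctsd* had the highest CPM of this list, 459.5 and 505 CPM with Aβ42 and 440.4 and 522 CPM with ScrAβ42, and had log2 fold changes of 0.06 and -0.05. The low-expressed *Plau*, which encodes urokinase, had -0.53 (adjusted p = 0.740, edgeR) and the peptidase *Thop1* -0.27 (adjusted p = 0.742, edgeR) with Aβ42, and -0.34 and -0.18 with 3D6. Of their inhibitors, *Timp4* was 9.75 to 19.2 CPM with 3D6 and 13.3 to 30.6 CPM with the control antibody, a log2 fold change of -0.49 (adjusted p = 0.946, edgeR), while *Cst3* and *Timp3*, with the highest CPM of the list, had 0.03 and -0.08 with 3D6.

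Among the lipoprotein receptors, *Cd36* and *Vldlr* had the highest CPM, with log2 fold changes of -0.01 and -0.04 with Aβ42 and 0.15 and 0.19 with 3D6. Of the lipid handling genes, *Lpl*, which encodes lipoprotein lipase, was at 6889 ± 1629.6 CPM with Aβ42 and 7209 ± 1329.5 CPM with ScrAβ42 (SD, n = 7 each), and *Rxra* had -0.18. In the export and endocytosis list *Picalm* and *Rab7* had 0.02 and -0.08 with Aβ42. The transporter *Abcc1* had -0.27 with Aβ42 (adjusted p = 0.714, edgeR), and the transporter *Abcg2* had -0.22 with 3D6 (adjusted p = 0.946, edgeR).

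The relatives of *Sorl1* held the only gene of the lists with an unadjusted p under 0.05 in both comparisons. The share of all genes that reach this in both was not counted, so no conclusion is drawn from it. *Sorcs2* was 11.3 to 25.7 CPM with Aβ42 and 16.2 to 30.4 CPM with ScrAβ42, a log2 fold change of -0.45 (SE 0.16, adjusted p = 0.693, edgeR). With 3D6 it was 6.53 to 19.4 CPM against 5.20 to 11.2 CPM, a log2 fold change of 0.59 (SE 0.22, adjusted p = 0.946, edgeR). The groups overlapped in both. *Sort1*, which encodes sortilin, was 46.8 to 291 CPM with Aβ42 and 38.9 to 149 CPM with ScrAβ42 (log2 fold change 0.88, SE 0.41, adjusted p = 0.753, edgeR), while the retromer subunits *Vps35* and *Vps26a* had 0.03 and 0.01.

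Of the other extracellular binders of the peptide, *Hspg2*, which encodes perlecan, had the smallest unadjusted p of all genes in the lists. It was 521 to 645 CPM with Aβ42 and 628 to 739.5 CPM with ScrAβ42, and only the upper end of the Aβ42 range reached the ScrAβ42 hearts. Its log2 fold change was -0.27 (SE 0.07, adjusted p = 0.589, edgeR), and -0.13 with 3D6. *Gsn*, an actin-severing protein that is also secreted, had 0.02 and -0.17. *Alb* was at 0 to 22.5 CPM in the ScrAβ42 hearts and 0 to 2.62 CPM with Aβ42, a log2 fold change of -3.62 (SE 1.30, adjusted p = 0.693, edgeR). The mean was 0.457 ± 0.979 CPM with Aβ42 and 5.72 ± 8.51 CPM with ScrAβ42 (SD, n = 7 each). *Alb* passed the count filter only through the ScrAβ42 hearts, so the difference itself decided that it was tested. No conclusion is drawn from its fold change. *Apoa1* and *Ttr*, also secreted by liver, did not pass the count filter and are named after their values were seen. They had means of 0.0535 and 0.464 CPM with Aβ42 and 1.48 and 0.992 CPM with ScrAβ42, and the groups overlapped for both. Other genes of secreted proteins in the lists, also named after their values were seen, went the other way. *Apoc1*, *Pzp* and *Lcat* had means of 2.12, 1.85 and 2.26 CPM with Aβ42 and 0.855, 0.967 and 1.77 CPM with ScrAβ42. *A2m* was nearly level, at 1.16 and 1.22 CPM.

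Of the other receptors, *Tlr4* was 16.5 to 23.2 CPM with Aβ42 and 19.1 to 33.6 CPM with ScrAβ42 (log2 fold change -0.42, adjusted p = 0.639, edgeR), and -0.07 with 3D6, while *Insr* and *Itgb1* had -0.03 and 0.07. The RAGE ligands *Hmgb1* and *S100a1* had -0.08 and 0.03 with Aβ42 and 0.07 and -0.19 with 3D6. Among partners of the prion protein, *Ncam1* had 1.25 with Aβ42 (SE 0.57, adjusted p = 0.751, edgeR), with values from 1.24 to 28.6 CPM. *Cav1* had -0.23 with 3D6 (adjusted p = 0.946, edgeR), and *Rpsa*, tested in the antibody study alone, had -0.18.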

How the data were processed

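Stranded total RNA libraries of 30 left ventricles were sequenced. The authors trimmed the reads, and quantified them with Salmon against GENCODE vM24. The authors deposited 2 tables without normalization, whole-number counts of Ensembl genes (peptide study) and estimated counts of transcripts (antibody study). How the gene counts were made is not given in the sources used here, and 1 count column that matches no labelled mouse was not used. Groups were taken from the labels.

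Transcripts were summed to genes with GENCODE vM21 (GRCm38), which lists 99.21% of them and 99.48% of the genes of the peptide table, and rounded. Transcripts it does not list, with 0.38% of counts, stayed features of their own. Each study was fitted alone with edgeR 4.0.16 (TMM, quasi-likelihood test, two-sided, mean of at least 10 counts per heart, Benjamini-Hochberg over all genes), in R 4.3.3, and the test was checked on simulated data. CPM use TMM library sizes, and log2 CPM a prior count of 2. Levels per length used transcript lengths in the antibody study and, for peptide hearts, each gene's count-weighted mean length there. Likeness used Spearman's rho of group-centred log2 CPM. Alternatives were DESeq2 1.42.0, limma-voom (limma 3.58.1), other scalings and filters, the atrial score or mitochondrial share as a covariate, protein-coding transcripts alone, leaving out each heart, and, added after the data were seen, leaving out Abeta42_3457 and ScrAbeta42_3448. Within each group, hearts differed by more than sampling noise (chi-square per degree of freedom at least 3.50). Genes that overlap a member on either strand (5 members have such a gene) averaged at most 0.5 counts per heart.

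The members and lists were chosen with earlier results of these data known. Named were all members, their transcripts that passed the filter, the 5 genes most like each, and of each list the 2 genes with the highest mean CPM and those with an unadjusted p under 0.05.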

Additional observations from a re-analysis of the deposited data

Results flagged for a closer look

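In each group of each gene, the highest and the lowest heart were compared with the rest by the gap to the nearest heart over the group's range. This was done for 36 groups on the CPM scale and again on the log2 CPM scale. The limit of this ratio is 0.568 for 7 hearts and 0.526 for 8. Chance gives about 1 in 20 groups only where values are normally distributed on the scale used, which cannot hold on both scales. The genes share the same hearts, so the 36 groups are not independent. *Clu* in ScrAbeta42_3448, at 1455 CPM, was far above its group on both scales (0.781 for CPM, 0.632 for log2 CPM), and this heart also had the highest atrial (3665 CPM) and fibroblast (2178 CPM) sums of the ScrAβ42 group. On the CPM scale alone, 4 hearts were far above their group, which were ScrAbeta42_3448 for *Lrp1* (646 CPM, 0.717 against 0.562 on the log2 scale), Abeta42_3457 for *Sorl1* (43.3 CPM, 0.679 against 0.529), control mouse 15 for *Clu* (895 CPM, 0.602 against 0.428) and control mouse 22 for *Apoe* (589.7 CPM, 0.587 against 0.395). On the log2 scale alone, *Prnp* in control mouse 22 was far below its group at 46.2 CPM (0.599 for log2 CPM, 0.487 for CPM), and this heart had the lowest mitochondrial share of the control group, 25.9%.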

How the results depend on the processing

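No paired analysis was run, because the groups share no mouse numbers and the labels name no pairs. In the antibody study each control mouse had a number next to that of a 3D6 mouse. The methods state that the antibody groups were matched for an echocardiography measure before treatment. Whether mice with adjoining numbers were matched is not stated, and such a pairing was not tested. Over 384 alternative values of the 16 member fold changes, 0 passed an adjusted p of 0.05, and 37 changed sign. DESeq2 called 12 genes for Aβ42 where edgeR called 0, with the cause not tested, and leaving out hearts gave 0 to 3, the 3 without Abeta42_3452. *Ager* failed the filter and has no such values; without a filter its log2 fold changes were 0.06 (adjusted p = 0.990, edgeR) and -0.53 (adjusted p = 0.842, edgeR).

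With the atrial score as a covariate the Aβ42 values of *Ide*, *Ece1*, *Apoe* and *Clu* changed sign, to 0.06, -0.09, -0.39 and -0.10. With the mitochondrial share, *Prnp* with Aβ42 was -0.01, and *Apoe* and *Sorl1* with 3D6 were 0.06 and -0.03. *Lrp1* with Aβ42 was 0.0015 without both low-mitochondrial hearts, *Sorl1* with Aβ42 was 0.06 when scaled to the total count, 0.0039 without a filter and 0.01 with 10 counts in every heart, and *Clu* with 3D6 was 0.01 with limma-voom. The cause of these changes was not tested.

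Leaving out each heart in turn, the Aβ42 value ranged from -0.23 to -0.04 for *Mme*, -0.14 to 0.02 for *Ide*, 0.04 to 0.23 for *Ece1*, -0.33 to 0.18 for *Lrp1*, -0.04 to 0.34 for *Apoe*, 0.40 to 1.00 for *Clu*, -0.26 to 0.11 for *Sorl1* and -0.04 to 0.07 for *Prnp*. The 3D6 value ranged from 0.20 to 0.48 for *Mme*, 0.13 to 0.27 for *Ide*, -0.23 to -0.14 for *Ece1*, -0.20 to -0.10 for *Lrp1*, -0.44 to -0.07 for *Apoe*, -0.15 to 0.16 for *Clu*, 0.0017 to 0.19 for *Sorl1* and -0.13 to 0.02 for *Prnp*. Depth limits *Ager*, with 0 to 5 counts in each heart.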

Other observations

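The tables of the 2 studies were counted and normalized separately, and levels differ between them for reasons that cannot be told apart. The mean CPM in ScrAβ42 hearts over that in control antibody hearts had a median of 1.5 over 11361 genes (5th to 95th percentile 0.588 to 2.76). For the members it was 3.75 for *Sorl1*, 2.25 for *Lrp1*, 2.14 for *Ide*, 1.77 for *Mme*, 1.63 for *Prnp*, 1.38 for *Clu*, 1.34 for *Ece1* and 1.25 for *Apoe*, so *Sorl1* alone lay outside that range. *Rpsa* and *Hmgb1*, which have many processed pseudogenes, were at 1.56 and 10.5 CPM in ScrAβ42 hearts and at 368 and 111 CPM in control antibody hearts.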
